A study of Mus with 50 samples.

Results

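The genes of the complement system were examined in the livers of 50 female mice. The members were 32 listed genes, chosen by name for their role in complement, with earlier results of these data known. Each was read from the probe set that carried its symbol alone and had the highest median. Of the 32 genes, 29 were measured among 22180 named genes. Masp2 was present only on a probe set shared with Tardbp, and C3 and Cfd were not analysed here. By textbook source, 17 of the 29 are made mainly by hepatocytes, 8 mainly by macrophages or other myeloid cells, and 4 by other or many cell types.

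Each mouse was a C57xFVB backcross animal that carried MMTV-Neu, a transgene with Neu under a promoter of mouse mammary tumour virus that is active in mammary epithelium, and breast cancer is given as the comorbidity of all 50. By the series design, the animals had extreme values of an ageing grade, but the labels do not say which animal had which, so all livers formed 1 group without a control and only levels and covariation over mice could be examined. Ages, genotypes and treatments are not in the labels. A single array was run per mouse, each mouse is named by the number in its title, and all values are log2 signals. The labels call the tissue liver while the extraction text mentions purified cell populations, and the hepatocyte markers checked here were high on every array, with a mean signal between 10.73 and 11.97.

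Complement is a cascade of plasma proteins that marks microbes and dying cells for uptake and can end in a pore in the target membrane. It is started by C1q bound to antibody, by lectins that bind sugars, or by spontaneous turnover of C3, and each branch is held in check by soluble and membrane-bound regulators. The hepatocyte supplies most of the plasma components, many of which are known as acute phase proteins, whereas C1q and properdin come chiefly from myeloid cells, among them the Kupffer cells of the liver.

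Most members were well above the middle of the array. Of the 29, 27 were at or above the median level of all genes, 3.61, and the medians of the members ran between 3.12 for Fcnb and 12.06 for Vtn. The spread over livers was large, with a median SD of 0.50 over the members, against 0.21 over all genes and 0.28 over the genes at or above the median level. The livers of 4 animals, 64, 84, 87 and 235, stand apart from the rest on the whole array. Without them the median SD of the members was 0.31, with no matching value for all genes given here. The results that follow are therefore given with these 4 livers and, where it matters, without them.

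**Figure D1:**
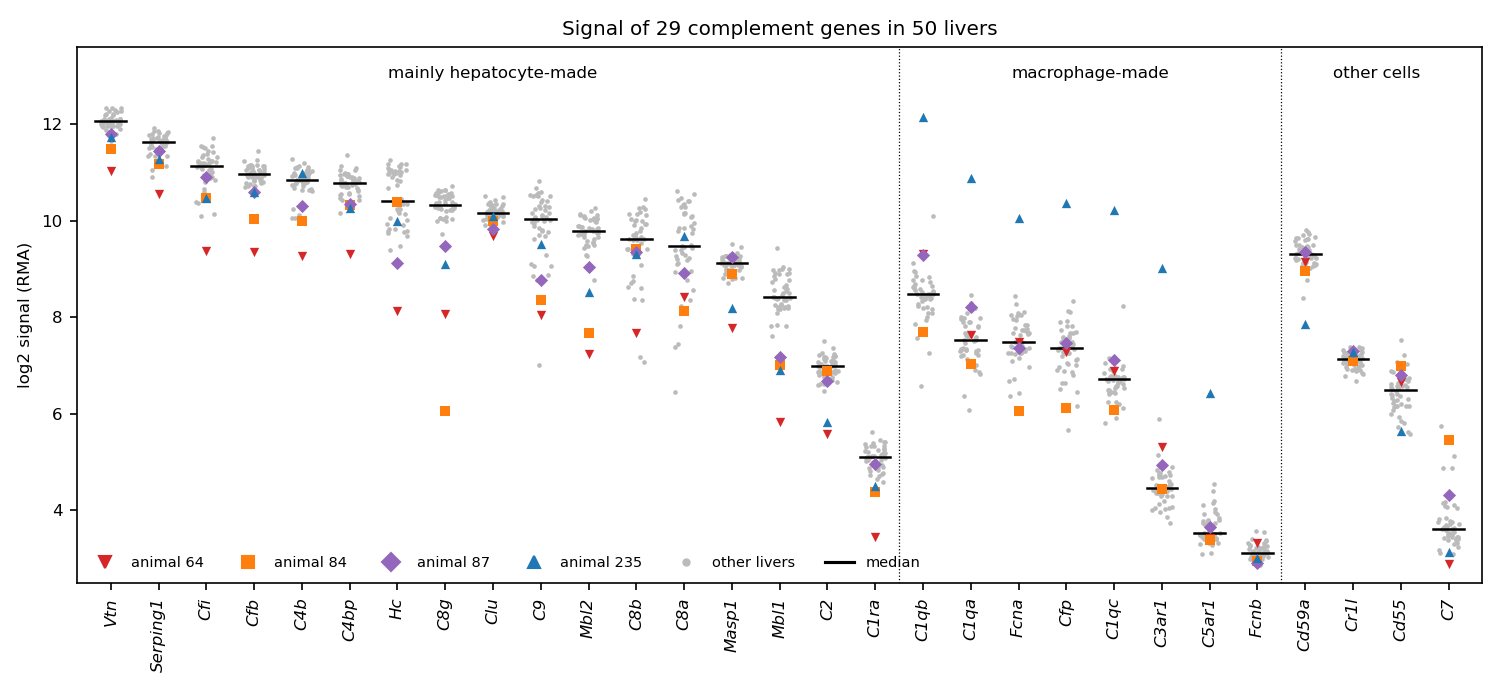
Log2 signal of the 29 measured complement genes (x axis, by main source) in 50 livers. Grey points are single livers, black bars are medians over 50 livers, and the 4 livers that stand apart have coloured symbols. Animal 64 was lowest for 13 of the 17 hepatocyte-made genes, and animal 235 was highest for 7 of the 8 macrophage-made genes.

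Among the starters of the classical pathway, the 3 chains of C1q were all readily measured. C1qa, C1qb and C1qc encode the A, B and C chains of the recognition molecule. C1qb ran from 6.58 in animal 91 through a median of 8.48 to 12.15 in animal 235, C1qa from 6.07 in animal 91 through 7.54 to 10.89 in animal 235, and C1qc from 5.82 in animal 89 through 6.72 to 10.22 in animal 235. The liver of animal 235 lay far above every other liver for all 3 chains: the second highest, animal 10 each time, had 10.11, 8.47 and 8.24. In bulk liver, more cells of a type and more RNA per cell cannot be told apart, here and in all results that follow. C1ra, a protease of the C1 complex with the near-identical copy C1rb, had a lowest, median and highest signal of 3.46, 5.10 and 5.62. C2, the protease part of the classical convertase, had 5.57, 6.99 and 7.51. C4b, which is cleaved by that pathway and binds to the target, had 9.26, 10.85 and 11.27, and its signal may not be fully separate from that of its copy C4a. Animal 64 was lowest for these 3 hepatocyte-made genes.

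Of the 5 lectin pathway genes measured, Fcnb alone lay below the median level of all genes. Mbl1 and Mbl2, soluble lectins that bind microbial sugars, had lowest, median and highest signals of 5.83, 8.41 and 9.44 for Mbl1 and 7.24, 9.79 and 10.26 for Mbl2. Both were lowest in animal 64. Masp1, a protease carried by these lectins, ran from 7.77 in animal 64 through 9.12 to 9.52. Fcna, the ficolin of liver and spleen macrophages in mice, ran from 6.05 in animal 84 through 7.49 to 10.05 in animal 235, while Fcnb, the ficolin of developing neutrophils and monocytes, stayed between 2.87 and 3.56 with a median of 3.12. Its SD of 0.15 was the smallest among the members.

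The alternative pathway was represented by Cfb and Cfp. Cfb, the protease factor B of the alternative convertase, ran from 9.35 in animal 64 through 10.98 to 11.44 in animal 179. Cfp, which encodes properdin, the stabiliser of that convertase, ran from 5.67 in animal 91 through 7.36 to 10.37 in animal 235. The lowest and the highest livers thus differed between the hepatocyte-made and the myeloid component of the same convertase.

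The genes of the membrane attack complex varied most among roles, with a median SD of 0.74 over 6 genes. C8a and C8b, the alpha and beta chains of C8, had lowest, median and highest signals of 6.46, 9.47 and 10.61 for C8a and 7.08, 9.61 and 10.45 for C8b. Animal 101 was lowest for both and animal 91 second lowest, at 7.38 for C8a and 7.18 for C8b. The SD of C8a, 0.91, was the largest among the members and exceeded that of 98.9% of all genes, and it was 0.91 without the 4 livers too. C8g, the gamma chain, a lipocalin, ran from 6.06 in animal 84 through 10.33 to 10.72, and its SD of 0.74 fell to 0.25 without the 4 livers. C9, which polymerises into the pore, ran from 7.00 in animal 91 through 10.03 to 10.83 in animal 179. Hc, the mouse gene of C5, and C7, which anchors the growing complex in the membrane, are described further down because their livers fell into clusters.

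Regulators were the steadiest role, with a median SD of 0.29 over 8 genes. Vtn, vitronectin, had a lowest, median and highest signal of 11.02, 12.06 and 12.34, Serping1, the C1 inhibitor, had 10.55, 11.64 and 11.91, and Clu, clusterin, had 9.68, 10.16 and 10.51. These 3 block assembly or start of the cascade, and each was lowest in animal 64. C4bp, a cofactor for the breakdown of C4b, had 9.31, 10.77 and 11.36, and Cfi, the protease factor I that cleaves C4b and C3b, had 9.38, 11.13 and 11.72. Of the membrane-bound regulators, Cd55, which speeds convertase decay, ran from 5.59 through 6.50 to 7.54, Cd59a, which stops pore formation, from 7.85 in animal 235 through 9.30 to 9.80, and Cr1l, the rodent regulator Crry, from 6.69 through 7.13 to 7.40. Cd55 and Cd59a have the copies Cd55b and Cd59b, from which their signals may not be fully separate.

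The anaphylatoxin receptors had low signals apart from animal 235. C3ar1, the receptor of C3a, ran from 3.73 through 4.47 to 9.01, and its second highest liver had 5.90. C5ar1, the receptor of C5a, ran from 3.09 through 3.52 to 6.43, with 4.54 as the second highest.

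The first question was which members moved with the inducible plasma proteins of the liver. An acute phase index was formed from 15 measured genes outside the member list (such as serum amyloid A, haptoglobin, orosomucoid and fibrinogen), and every named gene was fitted on it with limma. Of the 29 members, 14 were higher with the index and 0 lower, where 2.63% of all 22180 genes were called in either direction, 1.56% higher and 1.06% lower. All 14 were hepatocyte-made, of 17 hepatocyte-made genes measured. The median slope was 0.19 log2 per SD of the index over these 17, 0.05 over the macrophage-made members and 0.002 over all genes. None of the 8 macrophage-made members was called by limma, and 0 of them had an unadjusted p under 0.05.

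C8b and C8a led the members. C8b rose by 0.51 ± 0.08 log2 per SD of the index (SE), with a limma adjusted p of 7.28e-06, an r of 0.687 and a rho of 0.615. C8a rose by 0.62 ± 0.09 (SE), with an adjusted p of 9.83e-06, an r of 0.679 and a rho of 0.653. These relations did not rest on the extremes: without animals 179 and 64, the farthest on the index, r was 0.649 for C8b and 0.725 for C8a, and within the 4 stretches of animal numbers r lay between 0.640 and 0.767 for C8b and between 0.535 and 0.816 for C8a. By the size of the test, C8b and C8a stood at places 26 and 30 of the 22165 genes outside the index. The permutation p of r was 1e-05 for both, the smallest that 100000 permutations can give. An index of 7 endothelial markers had an r of 0.691 with C8b, 0.650 with C8a and 0.444 with the acute phase index. Its part in these relations was not tested.

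The regulators and early components followed with smaller slopes. C4bp had a slope of 0.21 and an r of 0.672 (limma adjusted p 4.63e-05), Cfi a slope of 0.29 and an r of 0.670 (3.03e-05), C4b a slope of 0.24 and an r of 0.651 (9.77e-05), Serping1 a slope of 0.17 and an r of 0.641 (0.000272) and Cfb a slope of 0.19 and an r of 0.614 (0.000551). These 5 remained called without the 4 livers, with r between 0.593 for Serping1 and 0.746 for Cfb. Cfb and C4bp were not related to the index in every stretch: among the 13 livers of animals 84 to 128, r was −0.033 for Cfb and 0.183 for C4bp, against 0.752 and 0.765 among the 16 livers of animals 137 to 235. Without animals 179 and 64, which lie farthest on the index, 6 members were called, C8a, C8b, C4b, C4bp, Cfi and Serping1, where 0.712% of all genes were called. With the stretches as a block 10 members were called, and C1ra, C2, C9 and Mbl1 were not, with adjusted p between 0.0575 for C2 and 0.201 for C9. Vtn, Clu, Mbl1, Masp1, C1ra, C2 and C9 were also higher, with limma adjusted p between 0.0014 for Vtn and 0.0453 for C9. Among the 13 livers of animals 84 to 128, their r was 0.018, 0.236, −0.322, 0.196, 0.053, 0.545 and 0.414 in that order. Without the 4 livers 10 members were higher, where 2.73% of all genes were called in either direction and 1.34% higher. C1ra, C2, Masp1 and C9 were the 4 that lost their call, with limma adjusted p of 0.192, 0.240, 0.0562 and 0.131.

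The 3 hepatocyte-made members outside this group were Mbl2, C8g and Hc. Mbl2 had an r of 0.073 with the index, and −0.377 without the 4 livers, with limma adjusted p of 0.871 and 0.166. C8g had an r of 0.118, and −0.033 without the 4 livers, with adjusted p of 0.752 and 0.967. Hc had an r of 0.326 and an adjusted p of 0.176. Thus Mbl1 was called and Mbl2 was not, and C8a and C8b were called and C8g was not. Whether members of a pair differ in their relation with the index was not tested.

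**Figure D2:**
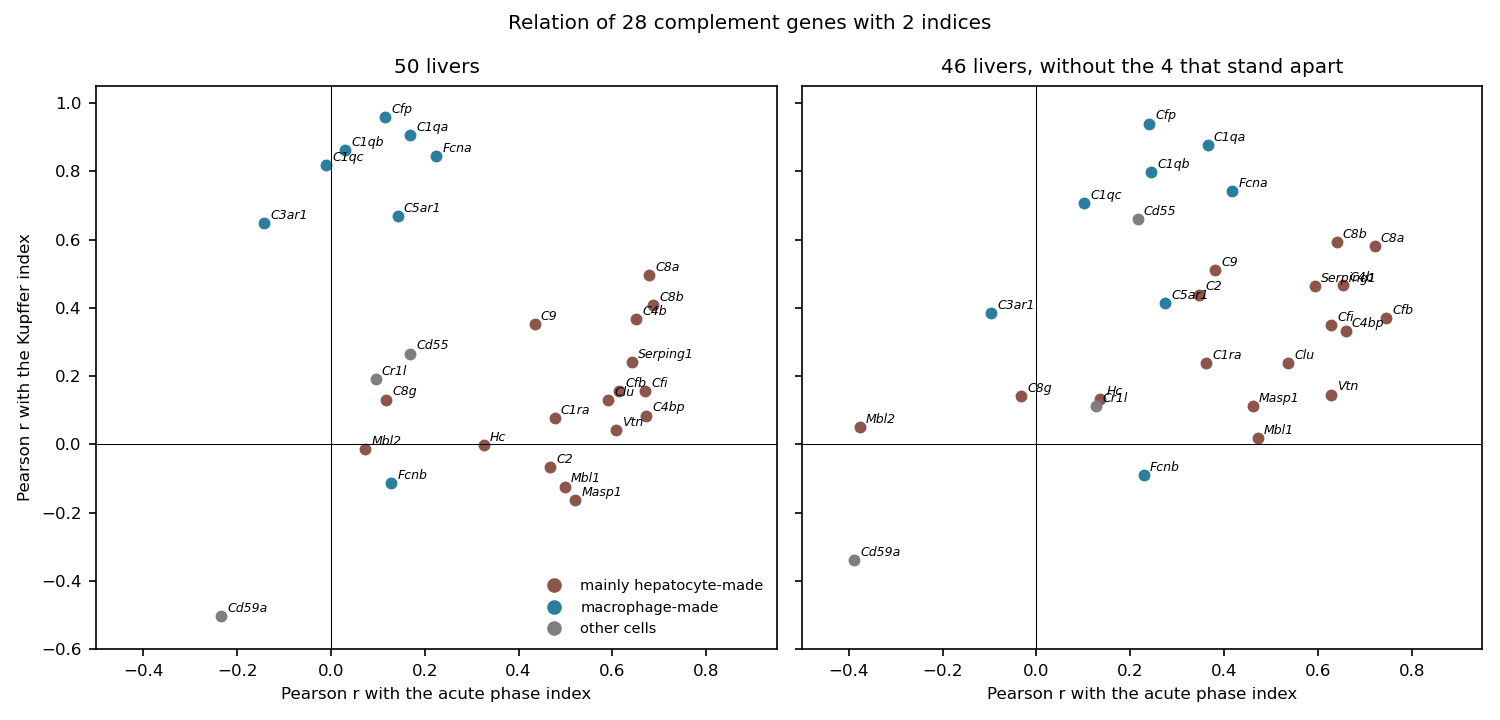
Pearson r of 28 complement genes with the acute phase index (x axis) and with the Kupffer index (y axis), over 50 livers on the left and 46 on the right. Each point is a gene, coloured by main source, and C7 is left out because its livers fell into clusters. Cfp and the C1q genes lie at the top, with r between 0.819 and 0.960 on the Kupffer index over 50 livers, and C8a and C8b lie at the right.

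The second question was which members moved with liver macrophages. The Kupffer index was formed from 9 marker genes, all at or above the median level of all genes, such as Clec4f, Timd4 and Csf1r. Of the 29 members, 9 were higher with it and 1 lower, where 7.56% of all genes were called in either direction, 5.29% higher and 2.27% lower. The 9 were 7 of the 8 macrophage-made members plus C8a and C8b. The median slope was 0.51 log2 per SD of the index over the macrophage-made members, 0.03 over the hepatocyte-made ones and −0.006 over all genes. In these relations the level of the index itself ran from −2.57 SD in animal 91 to 4.02 SD in animal 235.

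Properdin and C1q followed the macrophage markers most closely. Cfp rose by 0.66 ± 0.03 log2 per SD (SE), with a limma adjusted p of 2.06e-24, an r of 0.960 and a rho of 0.917, which was the smallest p of all 22171 genes outside the index. Without animals 235 and 91 its r was 0.926, without the 4 livers it was 0.940, and within the 4 stretches it lay between 0.966 and 0.979. C1qa, at place 3 of those genes, had a slope of 0.60 and an r of 0.907. C1qb, Fcna and C1qc had r of 0.861, 0.844 and 0.819, and all 3 remained called without the 4 livers, with r of 0.798, 0.741 and 0.706. Within stretches the 3 C1q genes had r between 0.827 and 0.971. Fcna was an exception among the 8 livers of animals 7 to 79, where r was −0.384, against 0.848 to 0.962 in the other stretches. Markers of other cells moved with these genes as well. Over the 46 livers r with a lymphocyte index was 0.714 for C1qc and 0.595 for C1qb, where their Kupffer r was 0.706 and 0.798, and r with an endothelial index was 0.748 for Cfp and 0.722 for C1qa. The mean signal of the 6 lymphocyte markers, 3 of them below the median level of all genes, ran from 3.24 to 6.45 over livers, and that of the 7 endothelial markers, none of them below it, from 6.60 to 8.79. Their part in the result was not tested.

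The receptors were called as well. C5ar1 had an r of 0.670 (limma adjusted p 4.13e-06) and C3ar1 an r of 0.649 (1.09e-05). Both rested on few livers: without the 4 that stand apart their r was 0.415 and 0.385, with adjusted p of 0.067 and 0.0811, and leaving out animal 235 alone gave adjusted p of 0.0722 and 0.158. Fcnb, the eighth macrophage-made member, had no call. Its closest genes over the 50 livers were Elane, an elastase of neutrophil precursors, with an r of 0.559, and Dmrtc2 and Olfr316, each with 0.508. Without the 4 livers Elane, Mpo and Ngp were the closest, with r of 0.590, 0.578 and 0.553. Elane, Mpo and Ngp are genes of neutrophil granules. Fcnb lay below the median level of all genes, and so did 8 of 10 neutrophil markers. Closest genes were picked as the largest of 22179 values, so they are given without a test.

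C8a and C8b were the hepatocyte-made members called on the Kupffer index, with r of 0.495 and 0.408 and limma adjusted p of 0.00421 and 0.0352. With the stretches as a block the adjusted p was 0.0265 for C8a and 0.146 for C8b, and on ranks it was 0.0573 and 0.199. With the acute phase, interferon, Kupffer and hepatocyte indices in 1 fit, C8a kept a Kupffer slope of 0.32 ± 0.08 (SE, adjusted p 0.00557) and C8b one of 0.18 ± 0.07 (SE, adjusted p 0.0725). The relation was not seen in every stretch: for C8a r was 0.819 and 0.671 among animals 84 to 128 and 253 to 301, but −0.208 and −0.036 among animals 7 to 79 and 137 to 235. An endothelial index moved with the same genes, with r of 0.650 for C8a, 0.691 for C8b and 0.575 for the Kupffer index itself, and its part in the result was not tested. Animals 91 and 101, lowest for C8a and C8b, had endothelial indices of −3.77 and −1.47 SD and Kupffer indices of −2.57 and −1.76 SD. Their acute phase indices were −0.91 and −1.94 SD, their interferon indices −1.74 and −1.03 SD, their stellate indices −1.62 and −1.04 SD, and their hepatocyte indices 0.01 and −0.23 SD.

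Without the 4 livers the Kupffer index called 11 members, all higher, where 3.64% of all genes were called in either direction and 3.0% higher. The 5 macrophage-made ones were Cfp, C1qa, C1qb, C1qc and Fcna, the 5 hepatocyte-made ones C8a, C8b, C9, C4b and Serping1, and the last was Cd55. Cd55 had an r of 0.266 over 50 livers and 0.660 without the 4 (limma adjusted p 0.279 and 3.59e-05). Within stretches its r was 0.519, 0.517, −0.224 and 0.764. Its r with the endothelial index was 0.622 over 50 livers and 0.698 without the 4. Cd59a, the member that was lower (r −0.503, adjusted p 0.00478), depended on animal 235: without that animal the slope was −0.06 with an adjusted p of 0.66, and without the 4 livers the adjusted p was 0.283.

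The relation with constitutive hepatocyte genes rested on the 4 livers. On an index of 10 genes, among them albumin and transthyretin, all 17 hepatocyte-made members were higher and C3ar1 was lower, where 29.7% of all genes were called in either direction, 13.7% higher and 16.1% lower. The closest were Mbl2, with an r of 0.857, and Cfb, with 0.855. Without the 4 livers 0 of 29 members were called by limma, with 9 at an unadjusted p under 0.05, where 1.98% of all genes were called. The hepatocyte index was −5.35, −2.51, −0.68 and −1.95 SD in animals 64, 84, 87 and 235.

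Interferon-stimulated, stellate cell and adipocyte genes gave few calls. On the interferon index limma called 0 of 29 members, with 10 at an unadjusted p under 0.05, where 0.996% of all genes were called. C1qa and Cfp came nearest, with r of 0.428 and 0.424 and adjusted p of 0.0846 and 0.0889. Without the 4 livers both were higher, with adjusted p of 0.012 and 0.00209, where 0.816% of all genes were called in either direction and 0.762% higher. With the acute phase, interferon, Kupffer and hepatocyte indices in 1 fit over 50 livers, their interferon slopes were 0.04 ± 0.04 and 0.03 ± 0.03 log2 (SE). That fit was not run without the 4 livers, and which of the added indices changed the slopes was not tested. On the stellate index C1qa and C1qb were higher and Mbl2 lower, with r of 0.442, 0.484 and −0.434, where 5.35% of all genes were called in either direction, 2.97% higher and 2.38% lower. None of these 3 passed without the 4 livers, where 0.879% of all genes were called and C7, described further down, was the 1 member called. On the adipocyte index limma called 0 of 29, with 2 at an unadjusted p under 0.05, where 0.0271% of all genes were called, and all 5 of its measured markers were below the median level of all genes.

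The hepatocyte-made members C8b, C8a, Cfi and Cfb were higher with the animal number, a graded number in the labels. The slope per 100 numbers was 0.45 ± 0.10 log2 for C8b (SE, limma adjusted p 0.00664), 0.47 ± 0.13 for C8a (0.038), 0.22 ± 0.06 for Cfi (0.0407) and 0.16 ± 0.05 for Cfb (0.0499), where 3.52% of all genes were called in either direction and 1.28% higher. C8b had a median of 8.67 in animals 7 to 79, and of 9.60, 9.82 and 9.92 in the 3 later stretches. Within stretches r with the number was −0.130, 0.357, −0.264 and −0.489 for C8b, and it changed sign between stretches for the other 3 as well. With the acute phase, interferon, Kupffer and hepatocyte indices in the same fit, 0 members were higher with the number. In that fit 3 hepatocyte-made members were lower, where 2.92% of all genes were called in either direction. Which of the added indices changed the calls was not tested. What sets the stretches apart is not in the labels.

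Members also covaried with one another, mostly within a source. Of 406 pairs, 156 passed limma in both directions of the fit, 144 with a positive and 12 with a negative slope, where 13.1% of all genes were called with each member as the covariate, 6.25% positive and 6.87% negative. Hepatocyte-made genes made up 118 of these pairs, of 136 possible, with a median r of 0.60. Macrophage-made genes made up 21, of 28 possible, with a median r of 0.74, and the 7 that failed were all pairs of Fcnb. Between the 2 sources 8 of 136 pairs passed, with a median r of 0.01. C7 was in no pair that passed.

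Both blocks shrank without the 4 livers. Of the 406 pairs, 66 then passed, where 1.97% of all genes were called and 1.36% were positive, and 46 of these were among the 156. The hepatocyte-made block had 34 pairs and a median r of 0.35, and the macrophage-made block 9 pairs and a median r of 0.41. Between the 2 sources 16 pairs passed, all positive, with a median r of 0.19. Of the 16, 10 held C8a, C8b or Serping1, paired with C1qa, C1qb, Fcna or Cfp.

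**Figure D3:**
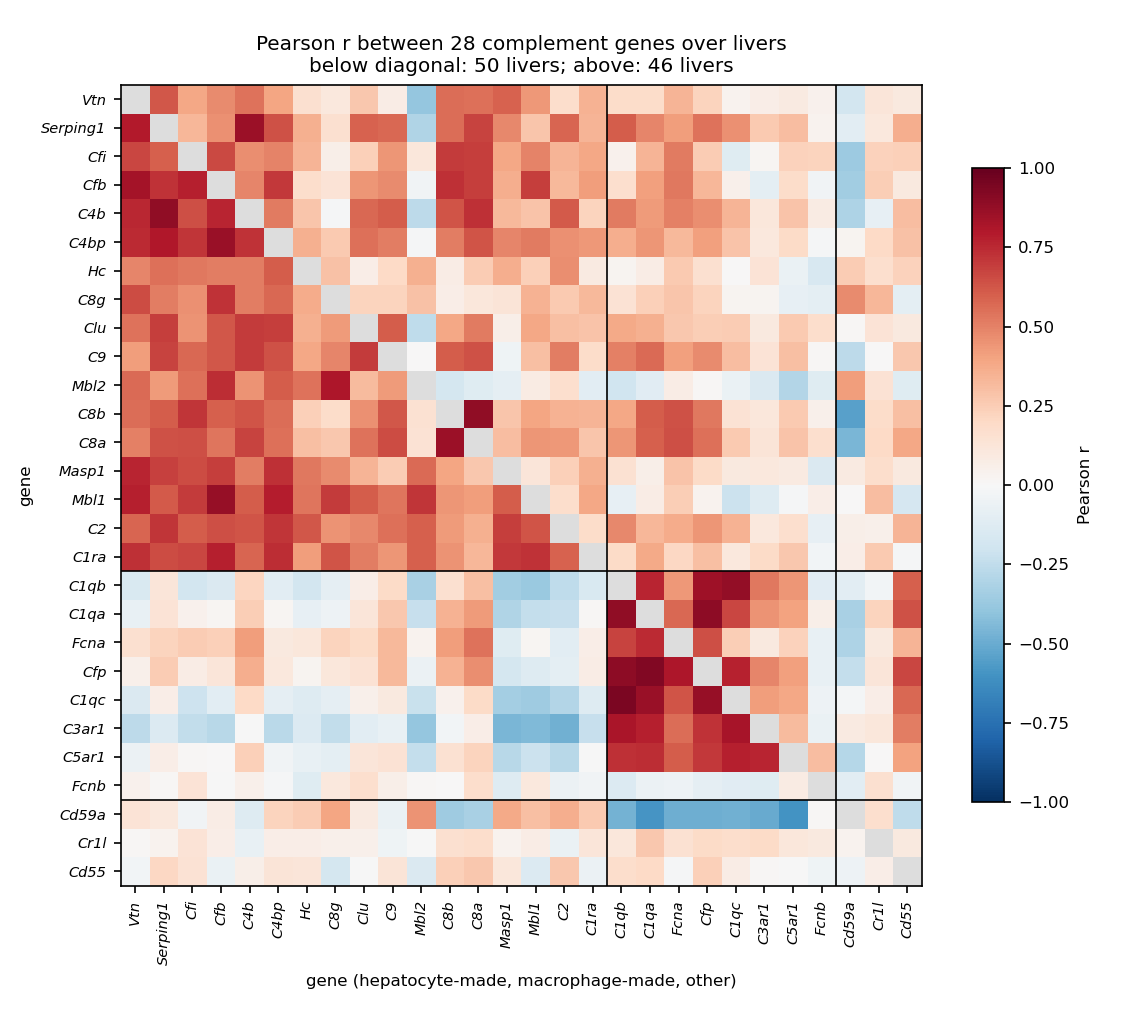
Pearson r between 28 complement genes (both axes, by main source), over 50 livers below the diagonal and 46 livers above it. C7 is left out because its livers fell into clusters. The hepatocyte-made block has a median r of 0.60 below and 0.35 above the diagonal, and the macrophage-made block 0.74 and 0.41.

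Subunits of the same protein did not always move together. C8a and C8b, neighbours with no measured gene between them, were each other's closest gene among 22179, with an r of 0.859 and a rho of 0.869 (permutation p 1e-05 for both). Their r was 0.889 without the 4 livers and 0.789 without the 2 livers farthest on C8a, and 0.341, 0.889, 0.701 and 0.934 in the 4 stretches. C8g lies on another chromosome. Its r was 0.269 with C8a and 0.184 with C8b, and the limma adjusted p was 0.378 and 0.551. A permutation test that swapped C8b and C8g within livers, chosen after these values were seen, gave a difference in r with C8a of 0.590 (two-sided p 1e-05, adjusted 4e-05 over 8 such tests) and of 0.778 without the 4 livers (adjusted p 0.00024). C8b had the largest of 22179 values with C8a, and neither these p nor the p of their r allow for that pick. No conclusion is therefore drawn from the difference. C8g had an r of 0.810 with Mbl2, but a rho of 0.325, and an r of 0.296 without the 4 livers.

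**Figure D4:**
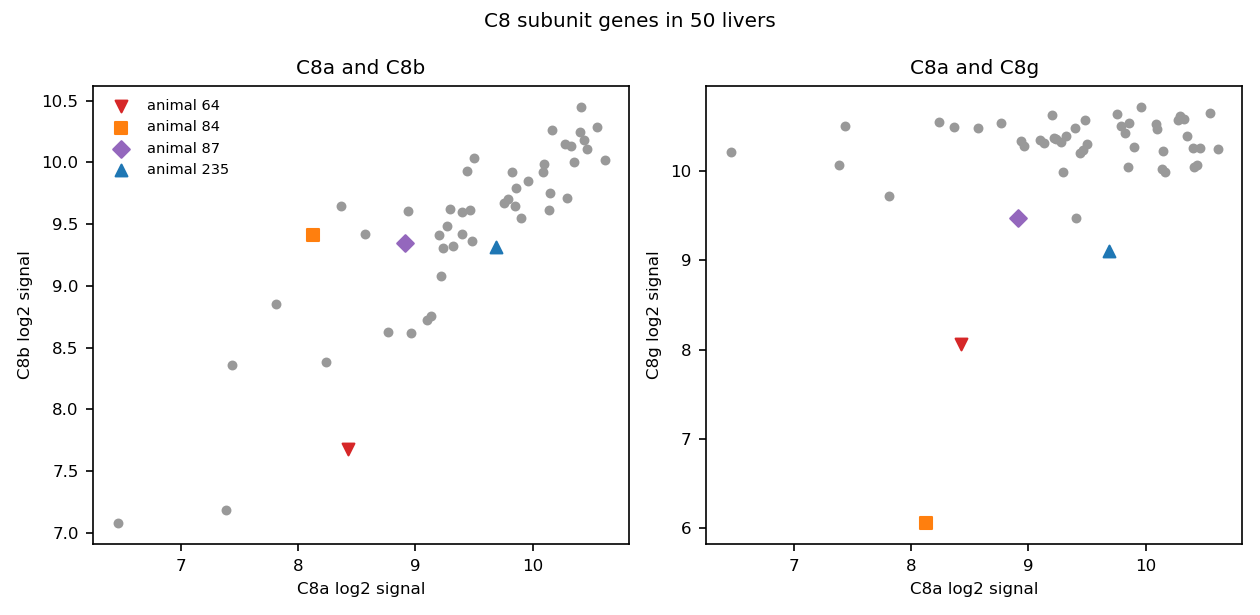
Log2 signal of C8a (x axes) against C8b (left) and C8g (right) in 50 livers. Grey points are single livers, and coloured symbols are the 4 that stand apart. C8b rises along C8a with an r of 0.859, whereas C8g, with a median of 10.33, has an r of 0.269. C8g is 6.06, 8.06, 9.10 and 9.48 in animals 84, 64, 235 and 87, and its lowest among the other livers is also 9.48.

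The 3 C1q chains, which lie next to each other in the genome, and properdin formed the tightest set. C1qb and C1qc had an r of 0.938, C1qa and C1qb 0.885, and C1qa and C1qc 0.862. C1qa and Cfp, on different chromosomes, were each other's closest gene, with an r of 0.925 and a rho of 0.840. Without the 4 livers these values were 0.882, 0.762, 0.666 and 0.891. The other close genes of the set were macrophage genes such as Csf1r, Cd68 and Folr2, and the closest to Fcna were Vsig4, a complement receptor of Kupffer cells, with an r of 0.869, and Clec4f, with 0.847.

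Among hepatocyte-made members, C4b and Serping1 were each other's closest gene. Their products meet in the same pathway, since the C1 inhibitor stops the proteases that cleave C4, and they lie on different chromosomes. The r was 0.883 and the rho 0.761 (permutation p 1e-05 for both), with 0.857 without the 4 livers and 0.696 to 0.983 within stretches. C4b had a lower r, 0.626, with C2, which lies in the same gene cluster with 7 measured genes between them. The difference of 0.257 had a permutation p of 0.00701 (adjusted 0.00935), again in a test chosen after the values were seen. Serping1 had the largest of 22179 values with C4b, and neither this p nor the p of their r allows for that pick. No conclusion is therefore drawn from the difference. Mbl1 and Cfb had an r of 0.869, with 0.689 without the 4 livers but 0.369 in animals 253 to 301. C2 and Cfb, direct neighbours, had an r of 0.642 that was 0.325 without the 4 livers. Mbl1 and Mbl2 had an r of 0.713 that was 0.085 without them.

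C7 and Hc were the members whose livers fell into clusters, C7 over the 50 livers and Hc without the 4. FVB mice are known to carry a null allele of Hc and C57BL/6 mice a functional one, and the labels give no genotypes. Hc ran from 8.13 in animal 64 through 10.42 to 11.25. Over the 50 livers the distance between its clusters was 2.55 SD, below the 4 SD required, and without the 4 livers it was 4.19 SD, with 23 livers around 10.02 and 23 around 11.02. The lower livers ran from 9.39 to 10.68 and the upper ones from 10.75 to 11.25, so that the gap between them was 0.07 log2, and the SD was 0.32 in the lower and 0.12 in the upper cluster. Both clusters held livers of all 4 stretches. Within the clusters, as a description without a test, r of Hc with the acute phase index was 0.100 in the lower and 0.563 in the upper livers. Its measured neighbour AI182371 had an r with Hc of 0.618 in the lower and 0.196 in the upper livers. Of the other terminal genes, C9 came nearest to Hc over the 50 livers, with an r of 0.390 and a limma adjusted p of 0.0717.

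C7 was near the median level of all genes in most livers and clearly above it in 5. It ran from 2.90 in animal 64 through 3.62 to 5.75 in animal 149, and the other livers of the upper cluster were animals 84, 179, 289 and 229, at 5.45, 5.13, 4.87 and 4.87. The distance between the clusters was 4.78 SD. The call of 2 clusters was lost without the 4 livers, where the upper cluster held 4 livers, under the 5 required. C7 is known from mesenchymal cells, and the stellate index was above its mean in all 5 upper livers, at 1.47, 0.90, 1.39, 1.13 and 1.44 SD in the same order. The livers highest on the index, animals 10, 64 and 235 at 1.95, 1.69 and 1.57 SD, had C7 of 3.09, 2.90 and 3.14. Over the 50 livers C7 had an r of 0.402 with this index and a limma adjusted p of 0.0507. C7 was higher with the index without the 4 livers, with an r of 0.519 and an adjusted p of 0.0281, and it was the 1 member called there. Within stretches r was −0.746 in animals 7 to 79 and 0.499, 0.619 and 0.710 in the later ones. Among the 45 lower livers r was 0.095 (permutation p 0.538), a value that leaves out the livers with the highest C7. The closest genes over the 46 livers, given without a test, were Bicc1, Adamtsl2 and Pamr1, with r of 0.685, 0.639 and 0.631. Within the 45 lower livers, r of C7 with the hepatocyte index was 0.423 (permutation p 0.00303, adjusted 0.0121 over 4 indices), and 0.149 without animals 64 and 235.

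**Figure D5:**
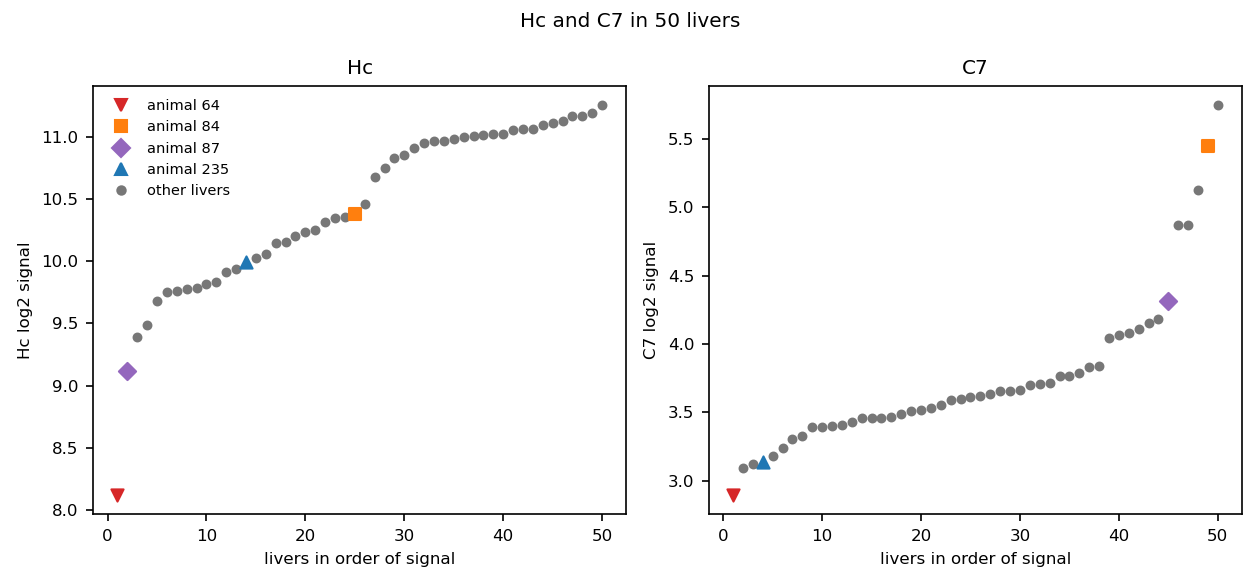
Log2 signal of Hc (left) and C7 (right) in 50 livers, sorted from low to high on the x axis. Coloured symbols are the 4 livers that stand apart. The mixture fit to the other 46 livers put 23 below and 23 above a boundary between 10.68 and 10.75 for Hc, with no wide gap there, and C7 has 5 livers at 4.87 or above.

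Complement genes outside the member list were read the same way. The 28 genes measured were listed with earlier results of these data known. On the acute phase index 4 were higher and 1 lower, where 2.63% of all genes were called. Apcs, serum amyloid P, had an r of 0.826 (limma adjusted p 1.28e-10), Crp, the C-reactive protein, 0.552 (0.00417), Cpn2, a chain of the carboxypeptidase that inactivates anaphylatoxins, 0.525 (0.00845), and Colec11, a collectin, 0.463 (0.0308), while C1qbp, a mitochondrial protein also known to bind C1q, had −0.587 (0.00138). On the Kupffer index, where 7.56% of all genes were called, 5 were higher: Vsig4 with an r of 0.939, C6 with 0.907, Itgb2, a chain of complement receptors 3 and 4, with 0.831, Itgam, the partner chain in receptor 3, with 0.596, and C5ar2, the second C5a receptor, with 0.497. C6, the component next after C5 in the membrane attack complex, thus followed the macrophage markers in these livers, with a slope of 0.55 and an adjusted p of 8.05e-17. It ran from 5.19 in animal 91 through 6.64 to 9.03 in animal 235, and without the 4 livers its r was 0.844. Of the 10 genes named here Itgam alone lost its call without the 4 livers, with an r of 0.315 and an adjusted p of 0.272.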

How the data were processed

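RNA of 50 livers was measured on 1 Affymetrix whole-transcript array each, from 100 ng of total RNA with the WT Plus kit, per the labels' protocols. Per the submitters' processing notes, RMA and Affymetrix Expression Console 1.4.1 were the tools behind the deposited table, which holds log2 signals. RMA normalises arrays by quantiles, so differences in total RNA are removed, and signals of different probes cannot be compared as amounts. Array medians lay between 3.27 and 3.34. Precision is limited by how many arrays there are.

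Of 41345 probe sets, 23521 carried 1 symbol, 1814 several and 16010 none in the platform annotation. Neighbouring genes came from a RefSeq table of GRCm38.p6. An index is the mean of its genes' standardised values, scaled to an SD of 1. Each was fitted over all 22180 genes with limma 3.58.1 in R 4.3.3 (lmFit, eBayes with trend, two-sided, Benjamini-Hochberg over all genes, threshold 0.05), and a pair passed when both directions did. The fit was tested on simulated data. Permutation tests used 100000 resamples and were two-sided. Relations of 29 members with 7 covariates and 406 pairs were computed. Clusters needed a BIC gain above 10 in a 2-component normal mixture, means 4 SD and 0.5 log2 or more apart, and no fewer than 5 mice per cluster. A liver is said to stand apart if its median correlation with other livers was over 3 interquartile ranges under the lower quartile. Stretches of animal numbers (7 to 79, 84 to 128, 137 to 235, 253 to 301) came from an earlier look at these data. Python 3.11.15, numpy 2.4.6, pandas 2.3.3, scipy 1.17.1 and scikit-learn 1.9.0 were used.

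The members and lists were chosen with earlier results of these data known. The text could name all members, the other complement genes, the 3 genes of the table closest to a member, and list genes on which a result turns; Tardbp and AI182371 were named after the values were seen.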

Additional observations from a re-analysis of the deposited data

How the results depend on the processing

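With ranks in place of log2 values, limma called 7 members on the acute phase index, 6 on the Kupffer index, 5 on the hepatocyte index and 0 on the stellate index, where 0.397%, 2.52%, 1.38% and 0.437% of all genes were called, and 41 pairs passed, where 1.65% were. Without the 4 livers that stand apart, 0 members were called on the hepatocyte index, 2 on the interferon index and 1 on the stellate index, where 1.98%, 0.816% and 0.879% of all genes were called, and 66 pairs passed, where 1.97% were. Without the 2 livers farthest on an index, 6 members were called on the acute phase index, 2 on the interferon index, 1 on the stellate index and 2 on the adipocyte index, where 0.712%, 0.685%, 1.44% and 1.91% of all genes were. With each array centred on its median, 1 was called on the stellate index, 2 on the adipocyte index and 2 on the animal number, where 2.83%, 1.48% and 2.96% of all genes were. With 4 indices in 1 fit, 1 member was called on the interferon index and 1 on the stellate index, where 1.65% and 0.108% of all genes were. With genes at or above the median level alone, 7 members were called on the stellate index, where 825 genes were higher and 731 lower of 11090 tested. The other counts of calls, taken without regard to direction, moved by no more than 1.5 times. With 4 indices in 1 fit, 0 members were higher and 3 lower with the animal number, against 4 higher and 0 lower with the number alone. In that joint fit 2.92% of all genes were called on the number. On the hepatocyte index alone 1 macrophage-made member was lower. Without the 2 farthest livers 5 were lower, and with 4 indices in 1 fit 4 were, where 16.2% and 29.4% of all genes were called. The mixture called 1 member clustered in every setting, but C7 in the 50 livers and Hc without the 4. Of 49 called relations of single members, Clu on the hepatocyte index alone turned its direction, with slopes of −0.01 without the 2 farthest livers and −0.04 without the 4. The causes were not tested. Leaving out animal 235 was added after the data were seen. No paired analysis was possible because the labels give 1 group.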
